A study of Mus musculus with 2 samples.

Results

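The nuclear genes of oxidative phosphorylation are the genes in the cell nucleus that encode subunits and assembly factors of the 5 protein complexes of the mitochondrial inner membrane. They were taken here by symbol, as every gene whose name starts with Ndufa, Ndufb, Ndufc, Ndufs, Ndufv, Uqcr, Atp5 or Sdh followed by a, b, c or d, and the Cox genes from Cox4 to Cox8. The rule found 98 of the 32285 genes counted. Of these, 45 belong to complex I, 8 to complex II, 8 to complex III, 20 to complex IV (with Ndufa4, its relative Ndufa4l2 and Cox7a2l) and 17 to complex V. By role the list holds 7 core subunits and 29 accessory subunits of complex I, 40 subunits of the other complexes, 12 assembly factors, 8 tissue isoforms, the supercomplex factor Cox7a2l, and Ndufb1-ps, which is named as a pseudogene. GENCODE annotates Ndufb1-ps as a long noncoding RNA of a bidirectional promoter. The rule takes no measured value into account.

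The cells came from the aorta of ApoE-/- mice at 20 weeks, and their transcripts were counted by single-cell sequencing in droplets. ApoE-/- mice lack apolipoprotein E and form atherosclerotic plaques. There were 2 samples, MSC_ITGB3 and HFD, with 1 sample per group. All mice were fed HFD, and MSC_ITGB3 names the treatment of 1 of the samples. Both samples share the strain, the tissue and the age. The sources used here do not say how many animals were pooled. The counts came as 2 libraries, told apart by the suffix of the droplet barcode, and nothing ties a suffix to a sample. They are called library 1 and library 2, and no comparison of MSC_ITGB3 with HFD was made.

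Oxidative phosphorylation is the last step of aerobic energy production. Complex I (NADH dehydrogenase) and complex II (succinate dehydrogenase) pass electrons to ubiquinone, complex III passes them on to cytochrome c, and complex IV (cytochrome c oxidase) hands them to oxygen. The proton gradient built along the way drives complex V, the ATP synthase. Most subunits are encoded in the nucleus and imported, while a small set is encoded by mitochondrial DNA (the mt- genes) and includes core parts of every complex but complex II. In the vessel wall the contractile smooth muscle of the media uses ATP for lasting tone, and quiescent endothelium is known for its reliance on glycolysis.

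Nuclear respiratory factor 1 (NRF1) and the ETS factor GABP, known as nuclear respiratory factor 2, are textbook regulators of this gene set. Promoters of RefSeq (GRCm38.p6), 250 bases before the start site, were found for 79 of the 98 genes. The core letters of the NRF1 motif, TGCGCA, occurred in 16 of the 79 (20.3%), against 7.36% of 27025 genes with a window of the same length. The ETS core CGGAAG, read on both strands, occurred in 29 (36.7%), against 15.3% of all genes. Both occurred together in 8 of the 79 (10.1%), against 2.02% of all genes; the 8 were Atp5g2, Atp5l, Cox6a1, Ndufa9, Ndufaf4, Ndufb6, Sdhaf3 and Sdhd. The hypoxia response core ACGTG was found in 15 (19%) against 18.5%, the ERR half-site AAGGTCA in 5 (6.33%) against 4.7%, the RBPJ core TTCCCAC in 3 (3.8%) against 6.18% and the YY1 core AAGATGG in 1 (1.27%) against 5.18%, each on both strands. The genes compared were not matched to the members in base content or expression, and the part of these in the differences was not tested. A match is a run of letters, not a bound site. Only these exact letters were searched, so other forms of the motifs were not counted.

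The promoters below are those of the subunit with both NRF1 and ETS cores and the highest level in its complex (Ndufb6 of complex I at chr4:40279422-40279671, Sdhd of complex II at chr9:50603850-50604099, Cox6a1 of complex IV at chr5:115348959-115349208 and Atp5l of complex V at chr9:44920743-44920992, all on the minus strand). None of the 5 complex III genes with a window had both, and Uqcrb, Uqcrc2 and Uqcrq were not searched. Ndufa11 (chr17:56717512-56717761, plus strand) and Ndufa12 (chr10:94198785-94199034, plus strand) are added because both stood out in smooth muscle. Each is written 5′ to 3′ on the gene's strand and ends at the base before the annotated start. Capitals mark the motif letters named above; adjoining or overlapping matches run together, as in the CACGTG of Atp5l, which holds ACGTG on both strands.
Ndufb6: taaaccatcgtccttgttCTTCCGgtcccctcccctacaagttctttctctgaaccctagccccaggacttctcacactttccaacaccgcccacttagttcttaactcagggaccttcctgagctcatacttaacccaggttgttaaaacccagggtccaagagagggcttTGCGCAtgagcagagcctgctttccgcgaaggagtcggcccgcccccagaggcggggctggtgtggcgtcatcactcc
Sdhd: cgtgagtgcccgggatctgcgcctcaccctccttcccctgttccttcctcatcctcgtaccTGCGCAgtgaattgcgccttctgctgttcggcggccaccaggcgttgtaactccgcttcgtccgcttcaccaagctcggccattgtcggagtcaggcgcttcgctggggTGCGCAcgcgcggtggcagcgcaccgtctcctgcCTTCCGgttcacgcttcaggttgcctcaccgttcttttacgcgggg
Cox6a1: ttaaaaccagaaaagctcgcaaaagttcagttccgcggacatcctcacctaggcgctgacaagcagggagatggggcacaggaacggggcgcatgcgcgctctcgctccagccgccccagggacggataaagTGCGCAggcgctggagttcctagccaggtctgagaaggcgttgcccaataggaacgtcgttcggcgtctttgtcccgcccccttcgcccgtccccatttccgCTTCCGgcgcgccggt
Atp5l: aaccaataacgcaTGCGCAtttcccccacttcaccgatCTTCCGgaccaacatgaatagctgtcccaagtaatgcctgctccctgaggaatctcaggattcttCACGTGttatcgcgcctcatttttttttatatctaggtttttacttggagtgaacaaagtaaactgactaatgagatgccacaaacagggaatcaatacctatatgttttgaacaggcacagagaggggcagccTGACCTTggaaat
Ndufa11: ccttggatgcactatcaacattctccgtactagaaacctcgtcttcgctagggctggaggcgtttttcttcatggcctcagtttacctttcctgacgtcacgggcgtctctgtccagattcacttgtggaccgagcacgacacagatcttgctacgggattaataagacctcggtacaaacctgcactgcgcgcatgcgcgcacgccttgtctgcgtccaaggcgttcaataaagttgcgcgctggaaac
Ndufa12: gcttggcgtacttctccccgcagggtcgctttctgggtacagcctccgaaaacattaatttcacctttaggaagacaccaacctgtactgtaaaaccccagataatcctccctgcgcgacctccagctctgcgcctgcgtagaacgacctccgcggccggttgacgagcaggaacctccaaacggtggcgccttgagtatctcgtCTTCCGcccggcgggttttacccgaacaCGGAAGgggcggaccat
In Ndufb6 the NRF1 core began 78 bases and the ETS core 232 bases before the start. Sdhd held the NRF1 core at 189 and 80 bases and the ETS core at 46 bases before the start. In Cox6a1 the cores lay 118 (NRF1) and 16 (ETS) bases before the start, and in Atp5l 237 (NRF1) and 212 (ETS) bases before it, with an ERR half-site at 13 bases. Ndufa12 held 2 ETS cores, 45 and 17 bases before the start. Ndufa11 held none of the exact letters searched, and other forms of the motifs were not looked for.

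Barcodes with 3000 or more unique molecular identifiers (UMIs) and at most 20% mt- UMIs were used, 6332 in library 1 and 6540 in library 2, with medians of 8746 and 6031 UMIs. Of these, 4338 (68.5%) and 4161 (63.6%) passed the marker gate of 1 cell type, 723 and 1388 carried smooth muscle and fibroblast markers together and were left out of the types, and 1271 and 991 were not gated. Type names mean resemblance in marker genes only, and doublets were not called. Markers that the larger gates were built on were high in them, with Acta2 at 21649 and 22808 UMIs per 1000000 UMIs (CPM) in smooth muscle barcodes of libraries 1 and 2, Lum at 4614 and 5607 CPM in fibroblast barcodes, Pecam1 at 2886 and 2730 CPM in endothelial barcodes and C1qa at 4911 and 4958 CPM in macrophage barcodes. The gates selected for these genes, so their levels are no separate check of cell identity. Droplets with 20 to 100 UMIs, taken as a profile of free RNA, held 2.2% and 2.22% nuclear and 2.61% and 3.9% mt- UMIs. All gated barcodes together held 1.81% and 1.93% nuclear and 2.87% and 3.55% mt- UMIs. The nuclear share of these droplets was above that of every type but smooth muscle and, in library 2, pericytes, and how much free RNA supplied to each type's count was not tested. The libraries had 17 barcode sequences in common, and the nuclear share was 1.81% and 1.93% without them. Error ranges are exact 95% intervals that cover counting error only. With 1 library per sample no p-value can be given, and differences between animals are not measured.

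Contractile smooth muscle gave the largest share of its transcripts to the nuclear oxidative phosphorylation genes, and chondrocytes the smallest of the 9 types with 20 or more barcodes in each library. Smooth muscle barcodes (930 in library 1, 1312 in library 2) held 2.43% (95% interval 2.42 to 2.44) and 2.48% (2.47 to 2.49) nuclear member UMIs, against 1.66% and 1.7% in the other gated barcodes, a ratio of 1.46 in each library. Pericytes (42 and 131 barcodes) followed with 2.18% and 2.29%. Dendritic cells (58 and 24) held 1.97% and 2.07%, and macrophages (286 and 235) 1.96% and 1.88%. Fibroblasts (1952 and 1770) held 1.61% and 1.71%, endothelial cells (658 and 141) 1.7% and 1.6%, and T cells (139 and 87) 1.68% and 1.6%. Schwann cells (62 and 29) held 1.46% and 1.48%, and chondrocytes (66 and 394) 1.3% and 1.39%, against 1.83% and 1.99% in the other gated barcodes, ratios of 0.713 (0.703 to 0.724) and 0.698 (0.692 to 0.704).

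The order of the 9 types was the same in both libraries but for fibroblasts, which stood below endothelial and T cells in library 1 and above them in library 2. Dendritic cells and macrophages overlapped within counting error in library 1 (1.94 to 2% and 1.95 to 1.97%), as did endothelial and T cells in both libraries. Macrophages stood above the other gated barcodes in library 1 (ratio 1.09) and below them in library 2 (0.969). Neutrophil-gated barcodes (60 and 14) held 1.13% and 0.793%, with too few barcodes in library 2 to be compared. Barcodes with smooth muscle and fibroblast markers together held 2.01% and 1.85%, between those types.

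**Figure D1:**
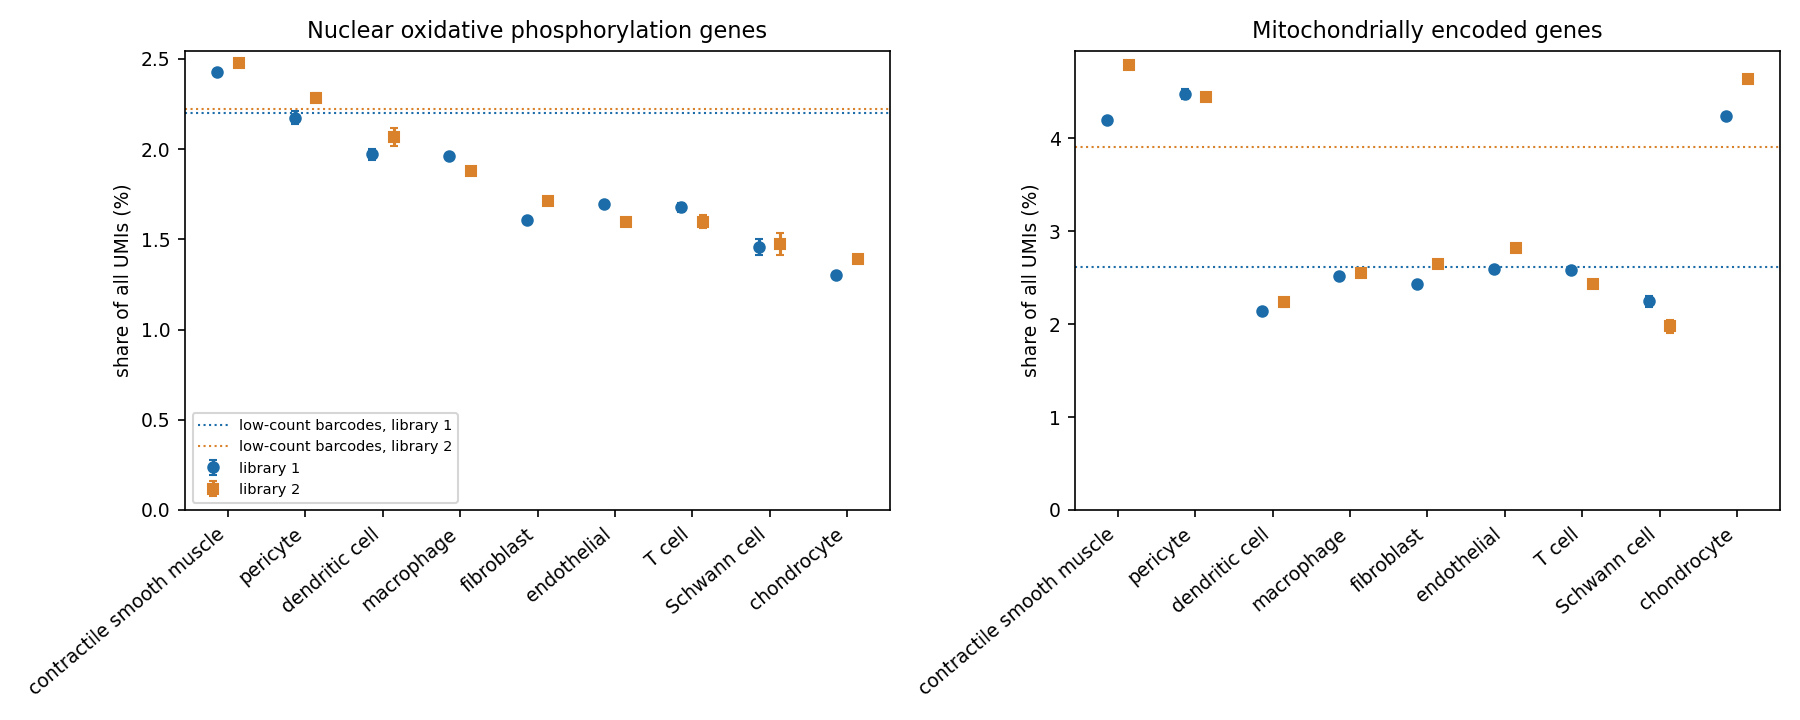
Share of all UMIs (%, vertical axis) from the nuclear oxidative phosphorylation genes (left) and from the mt- genes (right) in each gated cell type (horizontal axis), for library 1 and library 2; bars are exact 95% counting intervals and dotted lines are the low-count barcodes. Smooth muscle lies highest at 2.43% and 2.48% on the left, and chondrocytes lie lowest on the left at 1.3% and 1.39% but near smooth muscle on the right.

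The smooth muscle share stayed high at each depth, with 2.29%, 2.63% and 2.39% in library 1 and 2.21%, 2.55% and 2.48% in library 2 in barcodes of 3000 to 5000, 5000 to 10000 and 10000 or more UMIs. Chondrocytes, whose median depth was 14330 UMIs in library 1 and 4738.5 in library 2, held between 1.29% and 1.51% in the 5 depth classes computed, of 22 to 210 barcodes each. The range of single barcodes was wide. The middle 50% of smooth muscle barcodes held 2.02 to 2.8% in library 1 and 2.08 to 2.8% in library 2, and the middle 50% of chondrocyte barcodes 1.1 to 1.6% and 1.2 to 1.64%.

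The mitochondrially encoded genes did not follow the nuclear genes in every type. The 13 mt- genes made up 4.2% and 4.79% of UMIs in smooth muscle barcodes of libraries 1 and 2, against 2.54% and 3.01% in the other gated barcodes. Chondrocytes, lowest in nuclear share, held 4.24% and 4.64% mt- UMIs, against 2.83% and 3.42% in the other gated barcodes. Dendritic cells held 2.14% and 2.23%. The ratio of nuclear to mt- UMIs was therefore 0.307 and 0.3 in chondrocytes, 0.578 and 0.517 in smooth muscle and 0.922 and 0.924 in dendritic cells. Chondrocyte and smooth muscle barcodes also differed in which mt- genes were high. mt-Co1, the catalytic subunit of complex IV, had 6818 and 8313 CPM in chondrocytes and 4058 and 4871 CPM in smooth muscle, while mt-Nd4l, a complex I subunit whose gene overlaps mt-Nd4, had 266 and 297 CPM in chondrocytes and 639 and 750.4 CPM in smooth muscle. mt-Atp6, of the proton channel of complex V, had 8444 and 9144 CPM in chondrocytes and 8878 and 10588 CPM in smooth muscle.

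Of the 98 genes, 86 reached 20 CPM as the mean of both libraries over all gated barcodes, and 12 did not. All 78 that are neither a tissue isoform nor an assembly factor reached it, with levels from 32 to 785.7 CPM and a median of 207 CPM. The 12 assembly factors lay between 7.27 and 58.1 CPM, and 6 of them reached 20 CPM. Of the tissue isoforms, Cox4i2 and Ndufa4l2 alone reached it, Cox8c had no UMI in gated barcodes of either library and Cox7b2 had 1. Reads come from 3′ ends and a transcript counts once whatever its length, so levels were not divided by length. The highest members of each complex were Ndufa13 (374 CPM) and Ndufb9 (314 CPM), accessory subunits of complex I, Sdhb (102 CPM) and Sdha (73.6 CPM), the catalytic subunits of complex II, Uqcrh (498 CPM) and Uqcrb (352 CPM) of complex III, Cox4i1 (785.7 CPM) and Cox8a (616 CPM) of complex IV, and Atp5e (521 CPM) and Atp5h (484 CPM) of complex V.

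In smooth muscle nearly the whole gene set stood higher by a similar, moderate factor. Of the 87 members that reached 20 CPM as the mean of smooth muscle and the other gated barcodes, 82 had a higher CPM in smooth muscle in both libraries, against 36.6% of all genes tested. The median log2 ratio of the members was 0.56 in library 1 and 0.57 in library 2, and that of all genes tested was −0.1 and −0.12. At 2-fold in both libraries 2 members were called higher (background 6.37%) and 1 lower (background 11.0%), so the shift was broad and seldom large. The 82 were not fewer than 80 when fibroblasts alone were the comparison or when chondrocytes were left out. The same held at 5000 UMIs, under a stricter gate and with TMM factors. These alternatives were chosen after the data were seen, and no share of all genes was computed under them. In smooth muscle barcodes the 8 pericyte markers summed to 1495 and 1852 CPM, against 10113 and 10107 CPM in pericytes, the 8 fibroblast markers to 922 and 897 CPM, against 24884 and 24585 CPM in fibroblasts, and the 9 endothelial markers to 86.1 and 115 CPM. Their part in the smooth muscle values was not tested.

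The 2 genes called higher in smooth muscle were accessory subunits of complex I. Ndufa11, a subunit of its membrane arm, had 376 and 427 CPM in smooth muscle barcodes of libraries 1 and 2, against 179.9 and 207.5 CPM in the other gated barcodes, ratios of 2.09 (2.01 to 2.17) and 2.06 (1.98 to 2.13). Ndufa12 had 224 and 229.9 CPM against 110.5 and 113 CPM, ratios of 2.02 (1.93 to 2.12) and 2.04 (1.94 to 2.14). The intervals of Ndufa12 extend below 2 in both libraries, and those of Ndufa11 in library 2, so their place past 2-fold is within counting error. Just under it came Sdhc, a membrane anchor of complex II, with 125.5 and 112 CPM against 57.9 and 58.6 CPM (ratios 2.17 and 1.91), Ndufb3 with 224 and 272.5 CPM against 114.5 and 139 CPM, Ndufa5 with 219.8 and 238 CPM against 112 and 125 CPM, and Ndufb9 with 492.5 and 493 CPM against 251.5 and 260.2 CPM. With TMM factors, which moved the smooth muscle ratios by 0.14 and 0.2 on the log2 scale, 11 members passed 2-fold in smooth muscle. The share of all genes past 2-fold with these factors was not computed, so this count has no background.

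By complex, all 42 complex I members tested, all 8 of complex III and all 17 of complex V had a ratio above 1 in both libraries, as did 11 of 14 of complex IV and 4 of 6 of complex II. The median log2 ratio was 0.64 and 0.65 for complex I, 0.59 and 0.58 for complex III, 0.52 and 0.53 for complex IV, 0.47 and 0.38 for complex V and 0.23 and 0.19 for complex II. Among the high members, Cox4i1, a regulatory subunit of complex IV, had 1030 and 1036 CPM in smooth muscle, against 712.6 and 693.9 CPM. Cox8a had 832 and 873.9 CPM against 519.5 and 556 CPM. Uqcrb had 487 and 559 CPM against 288 and 299 CPM. Atp5b, the catalytic beta subunit of the ATP synthase, had 532 and 486 CPM against 309 and 278.5 CPM, and Uqcrc1, a core subunit of complex III, had 143 and 146 CPM against 83.8 and 77 CPM. Others were closer to the rest of the vessel wall: Atp5g2, which encodes the c subunit of the proton-driven ring, had 353 and 373 CPM against 349 and 338 CPM, and Ndufs4, an accessory subunit of the NADH-binding part of complex I, 95.6 and 102.7 CPM against 95 and 96 CPM.

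The exceptions in smooth muscle were few and of particular kinds. Cox7a2l, which takes part in building supercomplexes of complexes III and IV, had 223 and 195.5 CPM in smooth muscle, against 311 and 242 CPM. The other members below 1 in both libraries were the assembly factors of complex II Sdhaf4 (31.1 and 34.2 CPM against 47.6 and 45.1 CPM) and Sdhaf2 (24 and 22.3 CPM against 24.4 and 26.9 CPM) and the tissue isoforms Cox4i2 (30.1 and 18 CPM against 38.6 and 105 CPM) and Ndufa4l2 (27.3 and 9.74 CPM against 55.8 and 54.4 CPM).

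**Figure D2:**
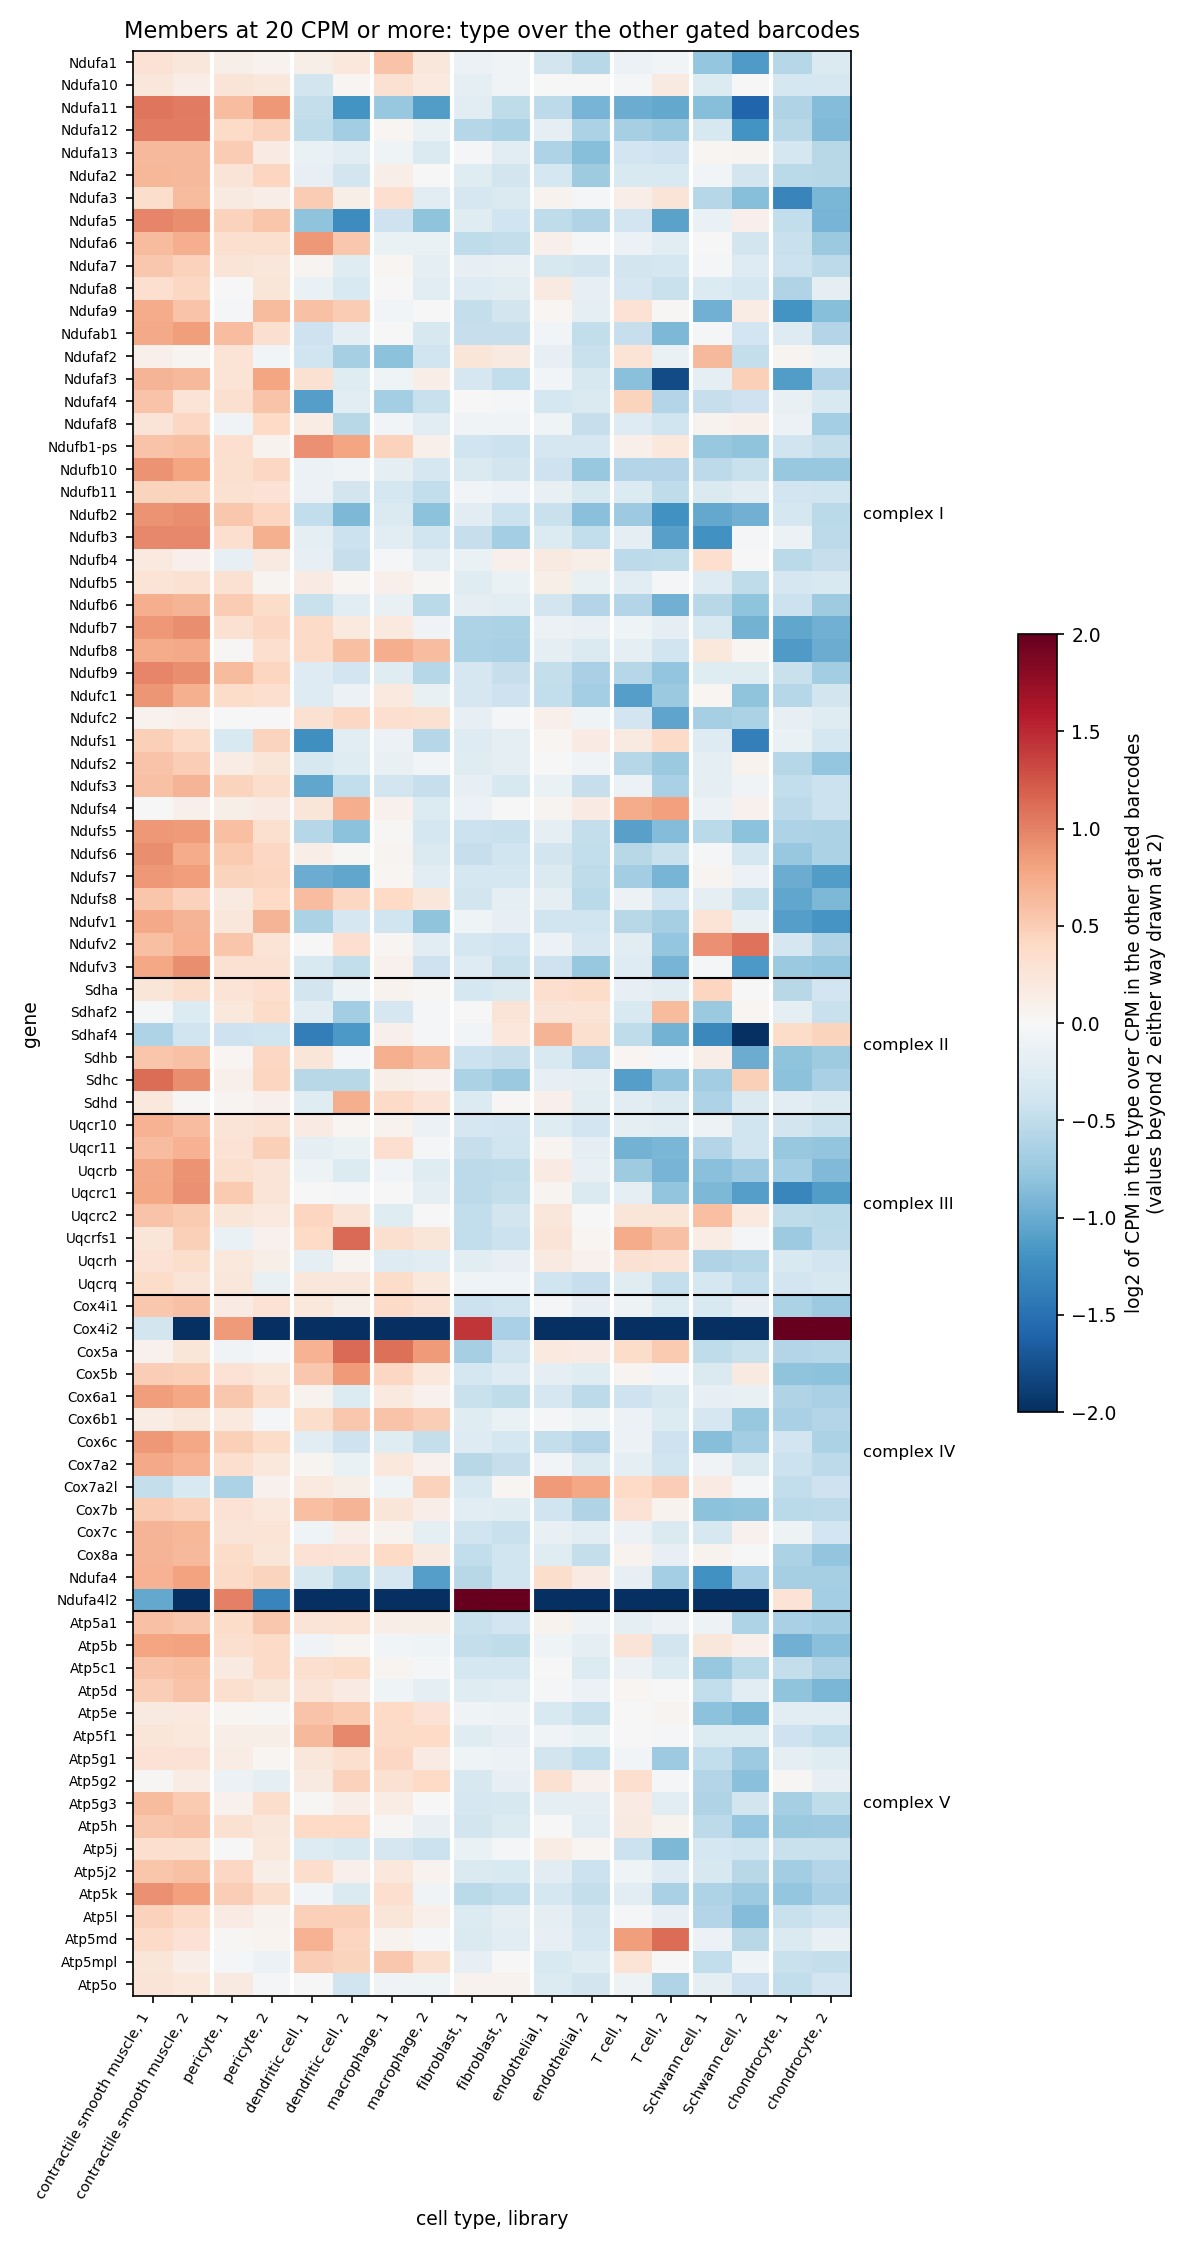
log2 ratio of CPM in a cell type over CPM in the other gated barcodes of the same library (colour, drawn up to 2 either way) for members at 20 CPM or more (rows, by complex) in the 9 types and libraries 1 and 2 (columns). The smooth muscle columns are red in nearly every row and the chondrocyte columns blue, with Cox4i2 (chondrocyte) and Ndufa4l2 (fibroblast) as the dark red exceptions.

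**Figure D3:**
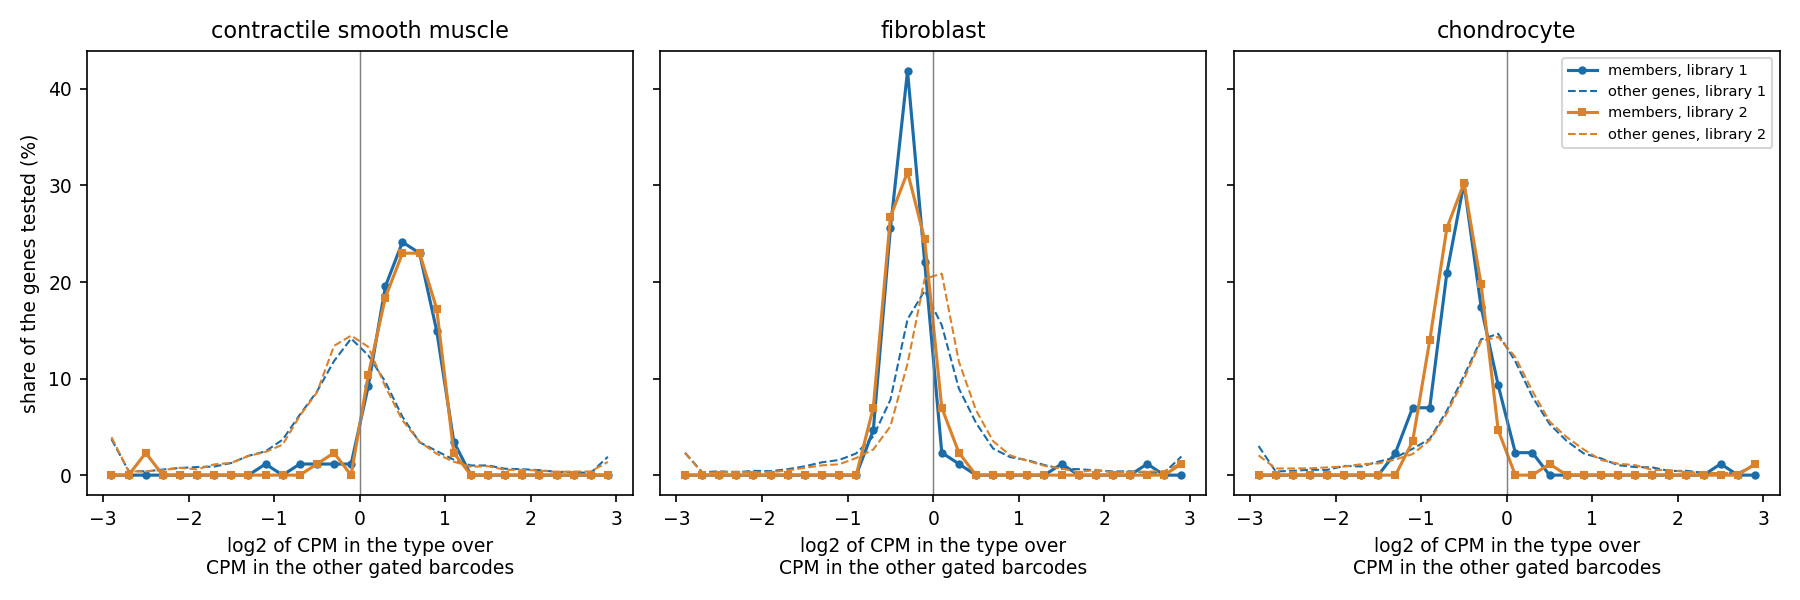
Share of the genes tested (%, vertical axis) by log2 ratio of CPM in the type over CPM in the other gated barcodes (horizontal axis), for members (solid lines) and other genes (dashed lines) in library 1 and library 2. In smooth muscle the members lie to the right of 0 with medians of 0.56 and 0.57, and in chondrocytes to the left with medians of −0.52 and −0.56, with fibroblasts between.

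Pericyte-gated barcodes resembled smooth muscle at a smaller size. Their gate set no upper limit on smooth muscle markers, and how far the likeness follows from the gate was not tested. Of 86 members tested, 69 had a ratio above 1 in both libraries (background 35.0%) and 4 below. The member medians were 0.27 in each library, against −0.01 and −0.02 for all genes tested. No member was called 2-fold higher (background 3.20%) or lower (background 6.04%). Ndufa11 again stood high, with 334 and 488 CPM in pericytes, against 217 and 266 CPM. Ndufb9 had 462 and 439 CPM against 296 and 327 CPM, and Sdha 91.4 and 88.8 CPM against 75.7 and 70.7 CPM. The pericyte gate rested mostly on Rgs5, with 8663 and 9002 CPM of the 10113 and 10107 CPM of its 8 markers. The 10 smooth muscle markers, all with a UMI, summed to 32657 and 42289 CPM there, against 47076 and 47428 CPM in smooth muscle. Among them Myh11 had 2893 and 3133 CPM, against 3580 and 3402 CPM in smooth muscle. The part of smooth muscle cells or RNA in the pericyte values was not tested.

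Chondrocyte-gated barcodes were the opposite of smooth muscle. Of 86 members tested, 81 had a lower CPM than the other gated barcodes in both libraries, against a background of 52.6%, and 2 a higher one. The member medians were −0.52 and −0.56, against −0.18 and −0.16 for all genes tested. The count was 77 with TMM factors and 79 with smooth muscle left out of the comparison, with no share of all genes computed for either. At 2-fold, 2 members were called lower (background 9.65%) and 1 higher (background 4.90%). Uqcrc1 had 39 and 47.7 CPM in chondrocytes, against 96.6 and 103 CPM, ratios of 0.403 (0.302 to 0.528) and 0.462 (0.4 to 0.529). Ndufv1, the complex I subunit that binds NADH, had 34.6 and 34 CPM against 73.8 and 76.6 CPM, ratios of 0.468 (0.343 to 0.624) and 0.444 (0.375 to 0.522). Several more lay near that size, such as Ndufb8 (85.3 and 97.5 CPM against 186 and 194 CPM) and Atp5b (182 and 199 CPM against 356 and 357 CPM). Cox4i1 had 501 and 504 CPM against 781 and 831 CPM, and Cox8a 377 and 396 CPM against 585 and 681 CPM. Above 1 in both libraries were Cox4i2, described with the isoforms, and Sdhaf4, which helps to assemble the flavoprotein Sdha (56.6 and 54.8 CPM against 44.1 and 40.3 CPM).

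The 9 markers that built the chondrocyte gate summed to 16584 and 28141 CPM in it, against 678 and 936 CPM in fibroblasts, with Col2a1 at 10641 and 20843 CPM and Acan at 1870 and 2711 CPM. This gate alone set no upper limit on fibroblast markers beside the fibroblast gate itself. It took barcodes at 2-fold marker enrichment, where pericytes, endothelial, immune and Schwann cells needed 5-fold. Chondrocyte barcodes carried all 8 fibroblast markers at a summed 25424 and 22985 CPM, as high as fibroblasts did. Their part in the chondrocyte values was not tested; Ndufv1 and Uqcrc1 were higher in fibroblasts (70.6 and 67.6 CPM, and 77.1 and 80.1 CPM) than in chondrocytes.

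In fibroblasts 76 of 86 members tested were below 1 in both libraries (background 43.8%) and 4 above, with medians of −0.29 and −0.32, against −0.09 and 0.01 for all genes tested. That count depends on the comparison: without smooth muscle among the other barcodes it was 31 of 86 with 25 above, the median was −0.12 in library 1 and 0.04 in library 2, and the fibroblast share was 0.925 and 1.02 times that of the others, values computed after the data were seen. No share of all genes was computed for the comparison without smooth muscle. Cox4i1 had 651 and 673 CPM in fibroblasts, against 876.9 and 890.2 CPM. Cox8a had 476 and 553 CPM against 667 and 725.9 CPM, and Ndufb8 141 and 139 CPM against 219 and 218 CPM. At 2-fold no member was called lower (background 5.78%), and Ndufa4l2 was the 1 called higher (background 5.10%). Ndufa4l2 had 92.1 and 80.7 CPM in fibroblasts, against 15.3 and 11.2 CPM, ratios of 6.03 (5.46 to 6.68) and 7.23 (6.36 to 8.24). The other members above 1 in both libraries were Ndufaf2, Sdhaf2 and Atp5o, at ratios of at most 1.2.

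Macrophages and dendritic cells had mixed values against all other gated barcodes, and higher values for more members once smooth muscle was left out. In macrophages 30 of 86 members were above 1 in both libraries (background 37.3%) and 29 below, with medians of 0.05 and −0.08, against −0.17 and −0.09 for all genes tested. Cox5a, a complex IV subunit on the matrix side, had 500.6 and 427 CPM in macrophages, against 233 and 236 CPM, ratios of 2.15 (2.05 to 2.24) and 1.81 (1.7 to 1.92). Sdhb had 157 and 153.5 CPM against 95.3 and 100.4 CPM, and Ndufb8 289 and 274 CPM against 174.5 and 178 CPM. Ndufa11 went the other way, with 133 and 130.2 CPM against 225.5 and 283.5 CPM. No member was 2-fold higher (background 13.3%), and Cox4i2 and Ndufa4l2 were 2-fold lower (background 18.6%). In dendritic cells 37 of 85 members were above 1 (background 38.9%) and 34 below, with medians of 0.02 in each library. None was 2-fold higher (background 12.3%), and Ndufa4l2 and Sdhaf4 were 2-fold lower (background 21.3%). The dendritic gate carried all 9 macrophage markers at a summed 1018 and 720 CPM, beside 1139 and 1823 CPM of its own 8 markers, and their part in its values was not tested. Cox5a had 408 and 539 CPM against 253 and 246 CPM, and Atp5e 740.6 and 777 CPM against 499 and 538 CPM. Ndufs7 (65.8 and 72.9 CPM against 131 and 149 CPM) and Ndufa5 (76.3 and 66.6 CPM against 134 and 159 CPM), both of complex I, stood low. TMM factors move the log2 ratios by 0.2 and 0.09 in macrophages and by 0.04 and −0.13 in dendritic cells, each more than the member median beside it. The direction over the whole set thus depends on the scaling in both types. With these factors both macrophage medians would be positive, and the dendritic medians would differ in sign between the libraries. Without smooth muscle among the others, computed after the data were seen, 52 of 86 members were above 1 and 17 below in macrophages, with medians of 0.21 and 0.13, and 47 of 85 above and 23 below in dendritic cells, with medians of 0.18 and 0.17. The share of all genes above 1 was not computed for that comparison, so these counts have no background. In the other types the shifts by TMM factors lay between −0.36 and 0.2 and left the sign of the member medians as given.

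Endothelial cells, T cells and Schwann cells had lower values for most members when smooth muscle was among the other barcodes. In endothelial cells 60 of 86 were below 1 in both libraries (background 34.5%) and 15 above, with medians of −0.16 and −0.31, against 0.14 and 0.15 for all genes tested. None was 2-fold higher (background 11.5%), and Cox4i2 and Ndufa4l2 were 2-fold lower (background 9.88%). Cox7a2l, low in smooth muscle, was high here, with 462 and 377 CPM in endothelial cells, against 256 and 221 CPM, ratios of 1.81 (1.75 to 1.87) and 1.71 (1.58 to 1.84). Without smooth muscle among the others, an alternative added after the data were seen, 40 of 86 members were below 1 and 30 above, the member median was 0.03 in library 1 and −0.12 in library 2, and the nuclear share was 1.7% in endothelial cells of library 1, against 1.65% in the others, so the direction turned in that library. For that alternative the share of all genes was not computed. Sdha had 91.7 and 90.6 CPM against 72.3 and 70.4 CPM, while Ndufa13 had 248.5 and 221 CPM against 382 and 398 CPM.

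In T cells 59 of 86 members were below 1 in both libraries (background 41.2%) and 15 above, with medians of −0.18 and −0.37, against 0.06 and 0.07 for all genes tested. None was 2-fold higher (background 15.4%), and Ndufa4l2 was 2-fold lower (background 18.3%). Without smooth muscle among the others 42 of 87 were below 1 and 25 above, with medians of −0.02 and −0.15, and the share of T cells was 1.01 times that of the others in library 1 and 0.94 times in library 2. Atp5md, a small subunit of the ATP synthase, stood out with 343.5 and 452 CPM in T cells, against 192.5 and 208 CPM, as did Ndufs4 with 157 and 172 CPM against 94 and 97.3 CPM and Uqcrfs1, the Rieske iron-sulfur subunit of complex III, with 126 and 100.3 CPM against 75.3 and 67 CPM. The 9 endothelial markers summed to 1372 and 164 CPM in T-cell barcodes of libraries 1 and 2, with 9 and 8 of them found, against 9305 and 9331 CPM in endothelial cells, and their part in the T-cell values was not tested. In Schwann cells 60 of 86 members were below 1 (background 34.9%) and 9 above, with medians of −0.3 and −0.4, against 0.09 and 0.1 for all genes tested. None was 2-fold higher (background 13.8%), and Cox4i2, Ndufa4l2 and Sdhaf4 were 2-fold lower (background 12.6%), each on 1 to 5 UMIs in a library or none. Without smooth muscle among the others 46 were below 1 and 16 above, with medians of −0.19 and −0.25. For T cells and Schwann cells no share of all genes was computed without smooth muscle. Ndufv2, a core subunit of the NADH-binding part of complex I, had 234 and 267 CPM in Schwann cells, against 124 and 125.5 CPM, ratios of 1.89 (1.45 to 2.42) and 2.13 (1.53 to 2.89).

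The balance between complexes also differed by type. Complex I supplied 35.2% and 35.9% of member UMIs in smooth muscle, 34.8% and 36.6% in pericytes, 36.1% and 35.1% in Schwann cells, 33.5% and 33.8% in fibroblasts and 32.3% and 32.4% in chondrocytes. It supplied 31% in endothelial cells of each library, 30.9% and 30.5% in macrophages, 29.4% to 30% in dendritic cells and 28.5% and 30% in T cells. Complex V supplied 31.6% and 31.3% in dendritic cells, 31.6% and 30.2% in T cells and 26.6% and 25.9% in smooth muscle. In smooth muscle, pericytes and Schwann cells complex I was well ahead of complex V. It was ahead by less in fibroblasts (complex V at 28.6% and 28.2%) and chondrocytes (28.2% and 28%). The same held for endothelial cells (28.4% and 28%) and macrophages (28.8% and 29.2%). In dendritic and T cells complex V was level with complex I or ahead.

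The tissue isoforms had the strongest cell-type patterns. Cox4i2, on chr2:152754173-152765037 (plus strand), is the isoform of complex IV subunit 4 known from lung and from cells low in oxygen, and Cox4i1, on chr8:120668222-120674207 (plus strand), is its widely expressed partner. Cox4i2 had 187 and 460.7 CPM in chondrocytes, against 33.3 and 35.4 CPM in the other gated barcodes, ratios of 5.61 (4.91 to 6.41) and 13 (12.2 to 14). It made up 27.1% (24.3 to 30.1) of the Cox4 UMIs in chondrocytes of library 1 and 47.7% (46.2 to 49.2) in library 2. Fibroblasts followed with 7.94% and 8.12%, and pericytes had 7.14% and 1.34%. Smooth muscle had 2.83% (2.54 to 3.15) and 1.71% (1.5 to 1.93). Macrophages had 0.0878% and 0.364%, endothelial cells 0.139% and 0.0716%, and the low-count droplets 7.21% and 13.2%.

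Cox4i2 was also set beside Col2a1, the collagen gene that marks chondrocytes, in each type and in free RNA. Col2a1 is a marker of the chondrocyte gate, and barcodes rich in those markers were kept out of the smooth muscle and fibroblast gates. Differences between chondrocytes and these types in this measure were therefore set in part by the gates. Low-count droplets held 43.1 (35.4 to 52.2) Cox4i2 UMIs per 100 Col2a1 UMIs in library 1 and 6.29 (5.44 to 7.24) in library 2. Chondrocytes held 1.76 and 2.21. Smooth muscle held 1031 (716 to 1533) and 35.4 (30.4 to 41.1), above the droplets in both libraries. The source of its Cox4i2 UMIs was not tested. Fibroblasts held 50.4 (47.2 to 53.7) and 23.7 (22.2 to 25.3), above the droplets in library 2 and overlapping them in library 1. Endothelial cells held 17.2 (8.17 to 32.9) and 1.49 (0.0372 to 8.61), and macrophages 36.4 (8.45 to 123) and 3.68 (1.74 to 6.87), on 1 to 11 Cox4i2 UMIs, at or below the droplets. When each barcode was thinned to 3000 UMIs, 42.4% and 59.4% of chondrocytes had a Cox4i2 UMI (60.6% and 74.9% unthinned), 8.3% and 11.1% of fibroblasts (17.5% and 20.5% unthinned), 7.74% and 5.34% of smooth muscle barcodes (20.1% and 13.5%), and 0.912% and 0% of endothelial cells (1.67% and 0.709%, at median depths of 13015.5 and 11506 UMIs).

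**Figure D4:**
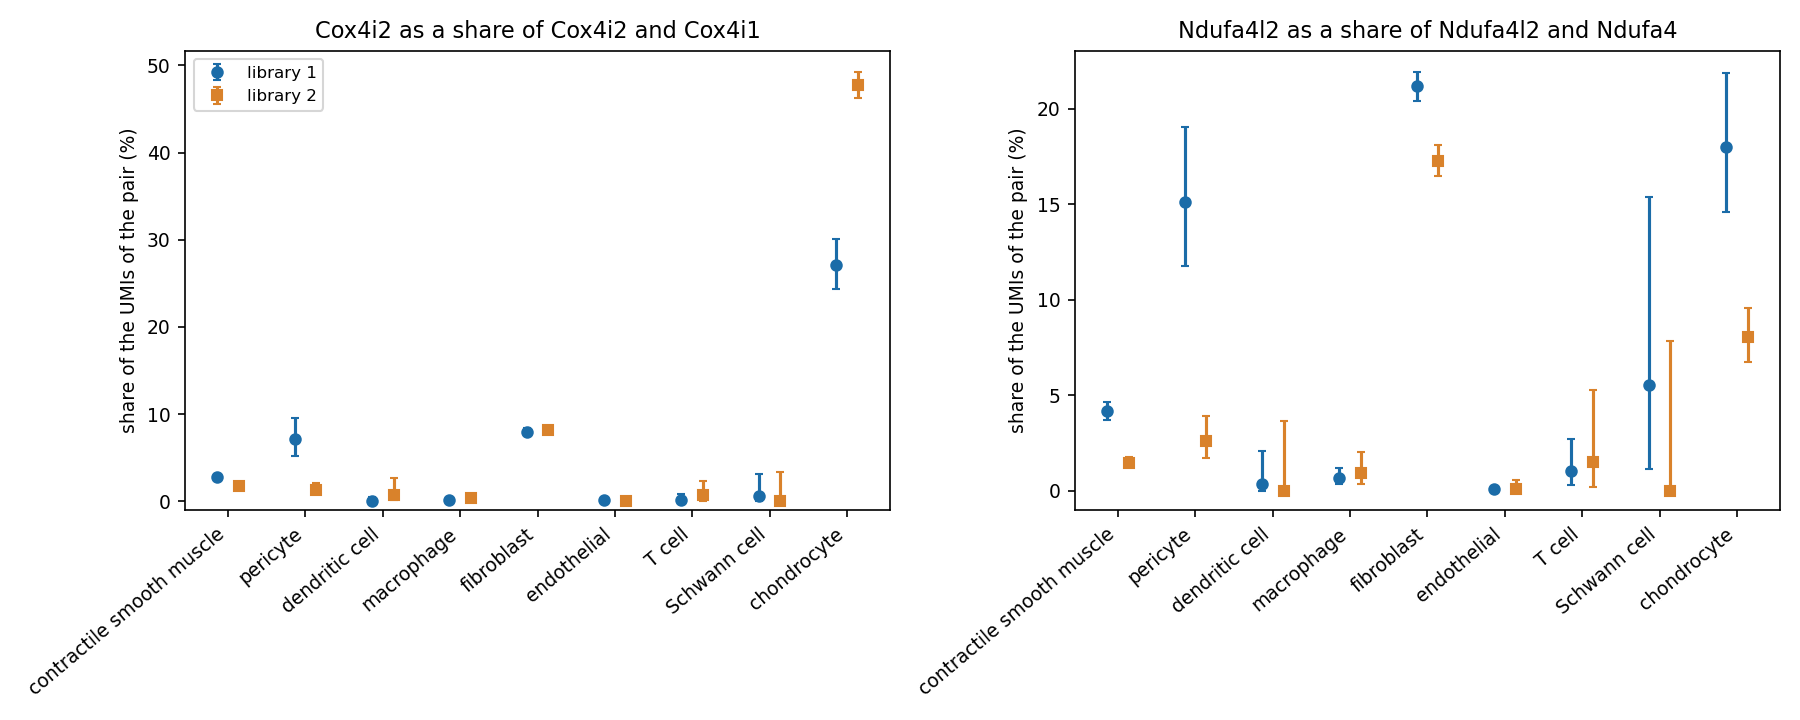
Cox4i2 as a share of Cox4i2 and Cox4i1 UMIs (left) and Ndufa4l2 as a share of Ndufa4l2 and Ndufa4 UMIs (right), in % (vertical axis), by cell type (horizontal axis) for library 1 and library 2; bars are exact 95% counting intervals. Chondrocytes stand highest on the left at 27.1% and 47.7%, and fibroblasts reach 21.2% and 17.3% on the right while endothelial cells stay near 0.

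Cox4i2 in fibroblasts came from few barcodes and moved with chondrocyte markers. The tenth of fibroblast barcodes with the most Cox4i2 held 89.9% and 83.2% of its UMIs. Among fibroblasts with less than 500 CPM of summed chondrocyte markers (1440 and 1026 barcodes), Cox4i2 made up 3.05% (2.75 to 3.36) and 3.03% (2.66 to 3.43) of the pair. With 500 to 2000 CPM (342 and 490 barcodes) it made up 14.5% and 9.39%, and with 2000 CPM or more (170 and 254 barcodes) 25.3% (23.5 to 27.1) and 24.3% (22.6 to 26.2). The part of chondrocyte RNA in these barcodes was not tested.

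Ndufa4l2, on chr10:127514967-127517154 (plus strand), is a known target of hypoxia-inducible factor, and Ndufa4, on chr6:11900292-11907497 (minus strand), first assigned to complex I, is now counted as a complex IV subunit. Ndufa4l2 made up 21.2% (20.4 to 22) and 17.3% (16.5 to 18.1) of the pair in fibroblasts, 18% and 8.08% in chondrocytes, 15.2% and 2.63% in pericytes (where the 8 fibroblast markers summed to 2222 and 826 CPM, their part not tested) and 4.18% and 1.48% in smooth muscle. Macrophages had 0.685% and 0.948%, endothelial cells 0.109% and 0.1% and the low-count droplets 8.87% and 7.94%. In fibroblasts 21.8% and 21.1% of barcodes thinned to 3000 UMIs had a Ndufa4l2 UMI (36.3% and 33.2% unthinned), against 0.152% and 0.709% of endothelial cells. Its share did not follow the chondrocyte markers as that of Cox4i2 did, being slightly higher with them in library 1 and lower in library 2, at 20.4%, 23.1% and 22.7% in library 1 and 20.5%, 12.2% and 12.9% in library 2 with under 500, 500 to 2000, and 2000 CPM or more of them.

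**Figure D5:**
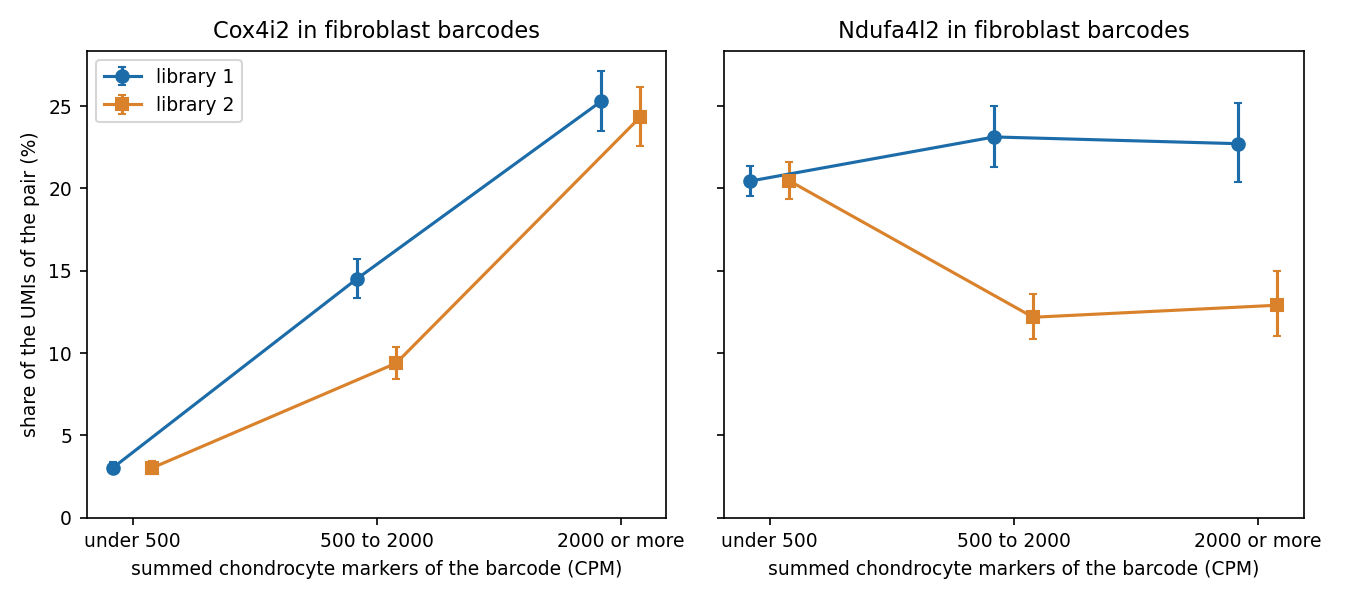
Cox4i2 share of its pair (left) and Ndufa4l2 share of its pair (right), in % (vertical axis), in fibroblast barcodes grouped by their summed chondrocyte markers in CPM (horizontal axis), for library 1 and library 2 with exact 95% counting intervals. The Cox4i2 share climbs to 25.3% and 24.3% with the markers, and the Ndufa4l2 share reaches 22.7% in library 1 and 12.9% in library 2.

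The remaining isoforms were rare. Cox6a2 and Cox7a1 are the isoforms of heart and skeletal muscle. Cox6a2 had no UMI in 930 and 1312 smooth muscle barcodes, where the 3412 and 4238 UMIs of its pair, all Cox6a1, allow a share of up to 0.108% and 0.087%. In macrophages Cox6a2 had 26 and 10 UMIs in 19 and 8 barcodes (5.64 and 3.53 CPM, against 0.903 and 0.218 CPM in the other gated barcodes, ratios of 6.25 with an interval of 3.72 to 10.3 and 16.2 with an interval of 5.92 to 45.1). In dendritic cells of library 1 it had 32 UMIs in 2 of 58 barcodes, and none in library 2. Cox7a1 had 28 and 14 UMIs in macrophages (6.08 and 4.94 CPM against 1.6 and 1.16 CPM) and 48 and 29 UMIs in smooth muscle (4.37 and 2.17 CPM against 1.38 and 1.07 CPM), 0.93% and 0.454% of the smooth muscle pair with Cox7a2. Cox6b2, known from testis, had 434 and 325 UMIs in fibroblasts, 5.26% and 5.04% of its pair with Cox6b1, against 1.05% and 1.55% in smooth muscle. Cox8b, the muscle partner of Cox8a, had 13 and 12 UMIs in fibroblasts and none in smooth muscle.

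Between the libraries the members differed little. Over all gated barcodes, 86 members were tested and 1 was at least 1.5-fold apart, against a background of 7.86%. None was higher in library 1 (background 4.79%), and Cox4i2 was higher in library 2 (background 3.07%), at 36.9 CPM in library 1 and 78.7 CPM in library 2. Library 2 held 394 chondrocyte barcodes and library 1 held 66. The member median of library 1 over library 2 was −0.09 on the log2 scale, against −0.01 for all genes tested. Within types, no member of 86 in fibroblasts (background 2.81%) or of 84 in endothelial cells (background 5.33%) passed 1.5-fold. In smooth muscle 1 of 86 did (background 4%): Cox4i2, higher in library 1, with 30.1 CPM in library 1 and 18 CPM in library 2. In macrophages 1 of 83 did (background 10.6%): Ndufa4, with 346 CPM in library 1 and 221 CPM in library 2, a ratio of 1.56 (1.43 to 1.72).

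In the smaller gates more members passed 1.5-fold in either direction: 6 of 87 in pericytes (background 24.0%), 6 of 84 in dendritic cells (background 30.8%), 4 of 84 in T cells (background 28.8%), 11 of 82 in Schwann cells (background 42.6%) and 3 of 86 in chondrocytes (background 16.4%). These shares were below the background in each gate. The background takes all genes from 20 CPM and was not matched to the members in level. The 78 members that are neither tissue isoform nor assembly factor had a median of 207 CPM. How far level accounts for the lower shares was not tested. Ndufaf3, an assembly factor of complex I, was the only member higher in library 2 in 3 types, and the share of all genes past 1.5-fold in that direction was 11.2% in pericytes, 23.2% in Schwann cells and 8.99% in chondrocytes. Its levels were 39.9 CPM in library 1 and 63.1 CPM in library 2 in pericytes, 29.3 and 52.1 CPM in Schwann cells on 8 UMIs each, and 15.4 and 25.8 CPM in chondrocytes. The Schwann interval of library 1 over library 2 (0.184 to 1.72) holds 1, and those of pericytes (0.385 to 0.999) and chondrocytes (0.358 to 0.96) end just under it. In chondrocytes Cox4i2 was higher in library 2 (ratio of library 1 over library 2 of 0.405, 0.354 to 0.462) and Ndufa4l2 in library 1 (2.28, 1.7 to 3.05). The chondrocyte markers of this gate also moved between the libraries, with a sum of 16584 CPM in library 1 and 28141 CPM in library 2. Cytl1, which is not a marker of this gate, moved the other way, at 5733 and 606 CPM in chondrocytes. It had 3346 and 2717 CPM in endothelial cells. The part of these shifts in the differences of Cox4i2 and Ndufa4l2 was not tested. Which sample each library holds is not known, and 1 library per sample gives no measure of the difference between animals.

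Citrate cycle and mitochondrial ribosome genes had medians of the same sign as the members in smooth muscle and in chondrocytes, while glycolysis had a positive median in both. The 12 citrate cycle genes tested had medians of 0.77 and 0.74 in smooth muscle, with 1 of 12 called higher at 2-fold, near the 6.37% of all genes (Suclg2, a subunit of succinate-CoA ligase, 70.6 and 69.8 CPM against 26.4 and 25 CPM), and −0.6 and −0.68 in chondrocytes. The mitochondrial ribosome had medians of 0.27 and 0.25 over 62 genes tested in smooth muscle and −0.43 in each library over 57 tested in chondrocytes, with none called in either type. Of 25 other respiratory chain genes outside the rule, 14 were tested, with medians of 0.39 and 0.18 in smooth muscle, where 1 of 14, Higd1a, was called higher (428 and 424 CPM against 168 and 201 CPM), about the same share as of all genes, and −0.17 and −0.2 in chondrocytes, close to all genes tested there. The 13 glycolysis genes tested had medians of 0.43 and 0.16 in smooth muscle, 0.54 and 0.29 in chondrocytes and −0.74 and −0.76 in endothelial cells, where 3 of 13, Hk2, Pfkp and Pkm, were called lower, against 9.88% of all genes. Hk2, a hexokinase, had 2.2 and 1.54 CPM in endothelial cells, against 131 and 103 CPM.

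The regulators of mitochondrial biogenesis were low and were seldom tested, with 5 of 11 reaching 20 CPM in smooth muscle (medians −0.19 and −0.25) and 3 in chondrocytes (−0.28 and −0.15). Ppargc1a, the coactivator that drives the program in muscle, lay under that level, with 12.8 and 8.47 CPM in smooth muscle, against 1.95 and 2.21 CPM, and Nrf1 had 24.8 and 23.2 CPM against 34.1 and 35.1 CPM. Of the 10 hypoxia response genes, 6 were tested in chondrocytes with medians of 0.62 and 0.35. Hif1a was the 1 called higher there (494 and 462 CPM against 192.5 and 188 CPM), against 4.90% of all genes, and Epas1 and Adm were the 2 called lower, against 9.65%. In smooth muscle 6 were tested with medians of −0.26 and −0.4, and Vegfa was the 1 called lower (11.3 and 12.5 CPM against 48.9 and 34.5 CPM), against 11.0% of all genes.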

How the data were processed

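Transcripts of aortic cells were captured with a Chromium 3′ v3 kit, per the labels' protocols. The deposited file holds UMI counts per gene and droplet barcode, made by the authors with Cell Ranger 6.0.1, per the file headers, on mm10, per the submitters' processing notes, which also name bcl2fastq and Seurat. It is 1 unfiltered matrix of 32285 genes and 102083793 entries, with 110257209 UMIs in library 1 and 124266676 in library 2. The handling of reads shared by similar genes is not stated in these sources.

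Barcodes with 3000 UMIs or more and at most 20% mt- UMIs were gated on 17 marker lists by their enrichment over droplets of 20 to 100 UMIs. Smooth muscle needed 1.5-fold enrichment, fibroblasts 1-fold, chondrocytes 2-fold and every other type 5-fold. Smooth muscle and fibroblast markers had to stay under 0.5 times the droplets in every type but their own. Pericytes were exempt from this for smooth muscle markers, and chondrocytes for fibroblast markers. Counts were summed per type and library and divided by the type's total (CPM). A gene was tested at 20 CPM as the mean of the groups compared, and called at 2-fold between types in both libraries or 1.5-fold between libraries. Intervals are exact (Clopper-Pearson for shares, Poisson for sums, conditional binomial for ratios) at 95%, for counting error only, and the floor is 3 counts. A share of barcodes with a UMI was computed after thinning to 3000 UMIs. Python 3.11.15, numpy 2.4.6, scipy 1.17.1, pandas 2.3.3, R 4.3.3 and edgeR 4.0.16 (scaling factors only) were used. The ratios, fold calls and ratio intervals were tested on simulated Poisson counts. The marker gate, the thinning and the promoter search were not tested in this way. Gene positions are those of GENCODE on GRCm38.

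The genes named are the 2 highest of each complex, those at least 3-fold higher in a type of 200 or more barcodes with 10 or more UMIs, those 1.5-fold higher in the same library in 3 or more types, and the isoform pairs. Other genes named were chosen after their values were seen. Members and gene lists were chosen with earlier results of these data known. No comparison of samples was made, since the libraries are not tied to them.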

Additional observations from a re-analysis of the deposited data

How the results depend on the processing

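No paired analysis was possible because each sample has 1 library and the results come from no test. Of the alternatives computed, 47 values stayed within their interval or within 1.5 times the count given, and 22 moved further. This sorting did not record changes of direction, which occurred without smooth muscle and are given below. The nuclear share over all gated barcodes, 1.81% in library 1 and 1.93% in library 2, was 1.913% in library 2 with a floor of 2000 UMIs. It was 1.821% and 1.952% with a floor of 5000 and 1.825% in library 1 as the mean of barcodes. Without assembly factors and Ndufb1-ps it was 1.763% and 1.876%. With mt- UMIs left out of the total it was 1.866% and 2.003%. The mt- share was 2.881% and 3.611% at 2000 UMIs, 2.845% and 3.497% at 5000, 2.777% and 3.387% with mt- at most 10%, 2.994% and 3.736% as the mean of barcodes, and 2.859% in library 1 under a stricter gate. Without a level filter, 2 members were 1.5-fold apart between libraries (Cox4i2 and Cox6a2), where 1 was with it, and 10 were called 2-fold higher in a type, where 4 were with it. With TMM factors 13 were called 2-fold higher in a type, 11 of them in smooth muscle. The share of all genes was not computed under any of these alternatives, so their counts have no background. The fibroblast count below 1 was 31 without smooth muscle among the other barcodes, against 76 with it. The fibroblast share then turned above that of the others in library 2. Leaving smooth muscle out lowered the endothelial count to 40 and the T-cell count to 42, with the share turned above that of the others in library 1 of both types. The Cox4i2 share in chondrocytes of library 2 was 49.6% at 5000 UMIs. The cause of these moves was not tested, beyond the change of barcodes or genes that each setting makes. The settings that change the comparison barcodes, leave out mt- UMIs or shared barcodes, or concern the counts above or below 1 and the chondrocyte share were chosen after seeing the data. Gates of under 100 barcodes limit what their member values can show.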

Other observations

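Of the 11 regulators of mitochondrial biogenesis listed, 5 were tested in T cells, with medians of 0.95 and 0.91 on the log2 scale in libraries 1 and 2. Of the 5, Nrf1 and Tfb2m were called 2-fold higher, against 15.4% of all genes tested in T cells. Nrf1 had 106 and 102.5 CPM in T cells, against 31 and 30.8 CPM in the other gated barcodes, on 102 and 47 UMIs. Tfb2m, a mitochondrial transcription factor, had 55.2 and 50.2 CPM in T cells, against 21.6 and 23.3 CPM. In Schwann cells Gabpa, the DNA-binding part of GABP, had 51.2 and 58.7 CPM, against 22.6 and 21.7 CPM, on 14 and 9 UMIs, the 1 called higher of 4 tested, against 13.8% of all genes. In endothelial cells Epas1, the hypoxia-inducible factor known from endothelium, had 962 and 1011 CPM, against 118 and 91.8 CPM, while Ndufa4l2 was at 0.573 and 0.512 CPM there. Pkm, which makes pyruvate, had 612 and 553 CPM in chondrocytes, against 358 and 397 CPM, and 198 and 197 CPM in endothelial cells, against 402 and 423 CPM.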
